A study of Rattus norvegicus with 30 samples.

Results

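Bdnf and its receptor Ntrk2 are described here as 2 genes of the 26404 in each count table, measured after TBI or a sham operation in perilesional cortex, ipsilateral thalamus and hippocampus. They were chosen by identifier, ENSRNOG00000047466 for Bdnf and ENSRNOG00000018839 for Ntrk2, and not by their values. Earlier results of these data were known when these genes were chosen. The names came with the identifiers, and since the table of names used here listed both symbols but 0 of the identifiers, the pairing was not checked against it. The injury model was lateral fluid percussion, a pressure pulse delivered to the intact dura over the left parietal lobe, and all animals were adult Sprague-Dawley males. Sham-operated animals shared the anesthesia, the craniectomy and every other surgical step, but received no impact. Tissue was collected 3 months after the operation from 5 rats with TBI (rats 6 to 10) and 5 sham-operated rats (rats 1 to 5). Each of the 3 brain areas gave 10 mRNA libraries from the same 10 rats, 30 in all, so that each rat is a separate animal within an area. The area labelled dorsal hippocampus was dissected as the dentate gyrus with CA3c-b. Both genes passed the filter on low counts in every area.

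BDNF is a secreted neurotrophin that neurons make as a precursor and release in part according to their activity. It supports neuronal survival, dendritic growth and synaptic plasticity. Ntrk2 encodes TrkB, the receptor tyrosine kinase that binds BDNF and signals through the Ras-MAPK, PI3K-Akt and phospholipase C pathways. Neurons make the full-length receptor, whereas astrocytes mainly make truncated forms without the kinase domain. Counts per gene, as deposited, add up all transcripts of Bdnf and all forms of Ntrk2, and the kinase-bearing and truncated receptors cannot be told apart. In a bulk tissue sample, fewer cells of a type and less RNA per cell cannot be told apart either. RefSeq lists 11 transcripts for Bdnf and 14 for Ntrk2 (assembly GRCr8). In that annotation, no other gene overlaps the span of Bdnf, and 7 long non-coding RNA genes overlap that of Ntrk2. Strands and exons were not compared, so whether these genes share reads with Ntrk2 was not tested. The tissue markers of the areas and the other genes of the neurotrophin pathway were not analysed here, because the identifiers in the tables were not paired with names.

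Bdnf is transcribed from several alternative first exons, each with its own promoter, and RefSeq gives 6 start-site windows for it in GRCr8, a later assembly than that of the counts. The window below is shown because it is the only one of the 6 with the CREB-binding-like motif TGACGTGA or its reverse complement TCACGTCA, and Bdnf is a textbook target of CREB. It runs from 250 bases before to 50 bases after the start site, on the plus strand of chr3:116637608-116637907, and the capitals mark the motif, which begins 38 bases before the start site.
Bdnf start-site window: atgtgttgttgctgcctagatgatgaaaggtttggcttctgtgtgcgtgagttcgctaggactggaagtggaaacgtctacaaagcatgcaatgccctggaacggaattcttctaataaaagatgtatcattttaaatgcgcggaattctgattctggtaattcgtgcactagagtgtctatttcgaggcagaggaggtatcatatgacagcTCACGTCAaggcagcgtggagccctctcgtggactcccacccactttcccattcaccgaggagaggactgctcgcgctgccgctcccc
Searched on both strands, this motif was found in 134 of 33469 windows of the same length (0.4%). The palindromic form TGACGTCA was in none of the 6 Bdnf windows and in 1.83% of all windows. Also searched was CACGTG, found in 1 of the 6 Bdnf windows, another than that shown, and in 6.42% of all windows. A match of letters is a description only. The counts do not say which start site was used, so no value below belongs to this window alone.

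The libraries held between 21992859 and 31799879 counts on genes. Bdnf had between 48 and 947 reads per library and Ntrk2 between 1743 and 6077. For the library with the fewest Bdnf reads (thalamus, TBI rat 8, 48 reads) the level was 2.12 CPM, with a 95% Poisson interval of 1.57 to 2.82 CPM that covers counting error only. In the hippocampus, the 10 most counted genes took 44.1% and 40.9% of the counts of sham-operated rats 4 and 5, against 9.95% to 16.4% in the other 8 libraries. In addition, all 40 genes that differed more than 4-fold between rats 3 and 8, in the same direction in cortex and thalamus, had the opposite sign in the hippocampus. The hippocampal difference was above 1 (log2) for 16 of the 40, and smaller for the rest. The labels of these 2 hippocampal libraries were kept, and why the sign was opposite was not tested. Most of these genes separate the treatments, since the other rats' groups differed by less than 0.5 (log2) in both areas at only 1 of them. The study's methods state that sham hippocampal libraries with a low alignment rate were discarded, without naming them, and the sham values given here include them. Tests on the hippocampus are therefore also given without these rats.

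In the perilesional cortex, Bdnf fell to 0.516-fold of its sham level after TBI, whereas no change of Ntrk2 was detected. Bdnf was measured at 20.5, 23.8, 14.2, 13.6 and 17.2 CPM (read count relative to the library size, TMM-scaled within the area) in sham-operated rats 1 to 5. In TBI rats 6 to 10 it was at 11.1, 10.8, 6.81, 7.22 and 9.95 CPM. Every TBI library lay below every sham library, and the lowest sham value was that of rat 4. Groups without overlap were found for 18.1% of the 17185 genes tested in the cortex. The group means were 17.9 ± 4.31 CPM for sham and 9.19 ± 2.04 CPM for TBI (SD, n = 5 each). The log2 fold change was -0.96 (standard error 0.18, 95% confidence interval -1.34 to -0.57), with an adjusted p of 0.00172 in edgeR's quasi-likelihood test. In the same test, 25.8% of all genes had an adjusted p under 0.05, so that a call as such is common in this area. Among the called genes, whose median absolute log2 fold change was 0.51, 54 had a larger fall than Bdnf. When single rats were omitted, the adjusted p stayed between 0.00159 and 0.00653 and the log2 fold change between -1.03 and -0.83. An exact permutation test on the log2 CPM of Bdnf alone (two-sided) gave p = 0.00794, the smallest that 5 rats against 5 allow.

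The 10 most counted genes took 20.3% to 29.6% of the cortical counts in sham-operated rats and 14.1% to 23.8% after TBI. With this share as a covariate in edgeR, the log2 fold change of Bdnf was -0.91 and its adjusted p 0.0188, and with total counts in place of TMM they were -0.72 and 0.0147. Total counts moved the median of all cortical genes from -0.01 to 0.21.

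Ntrk2 was at 196, 181, 164, 159 and 125 CPM in the cortex of sham-operated rats 1 to 5, against 170, 174, 153, 128 and 159 CPM in TBI rats 6 to 10. The groups overlapped over most of their range, and the highest as well as the lowest value belonged to sham-operated animals. The means were 165 CPM for sham (SD 26.6, n = 5) and 157 CPM for TBI (SD 18.02, n = 5). The log2 fold change of -0.07 had a 95% confidence interval of -0.31 to 0.17 (adjusted p = 0.673, edgeR), which holds values from 0.804-fold to 1.12-fold. Its sign turned with total counts, with the covariate and without sham-operated rat 1.

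**Figure D1:**
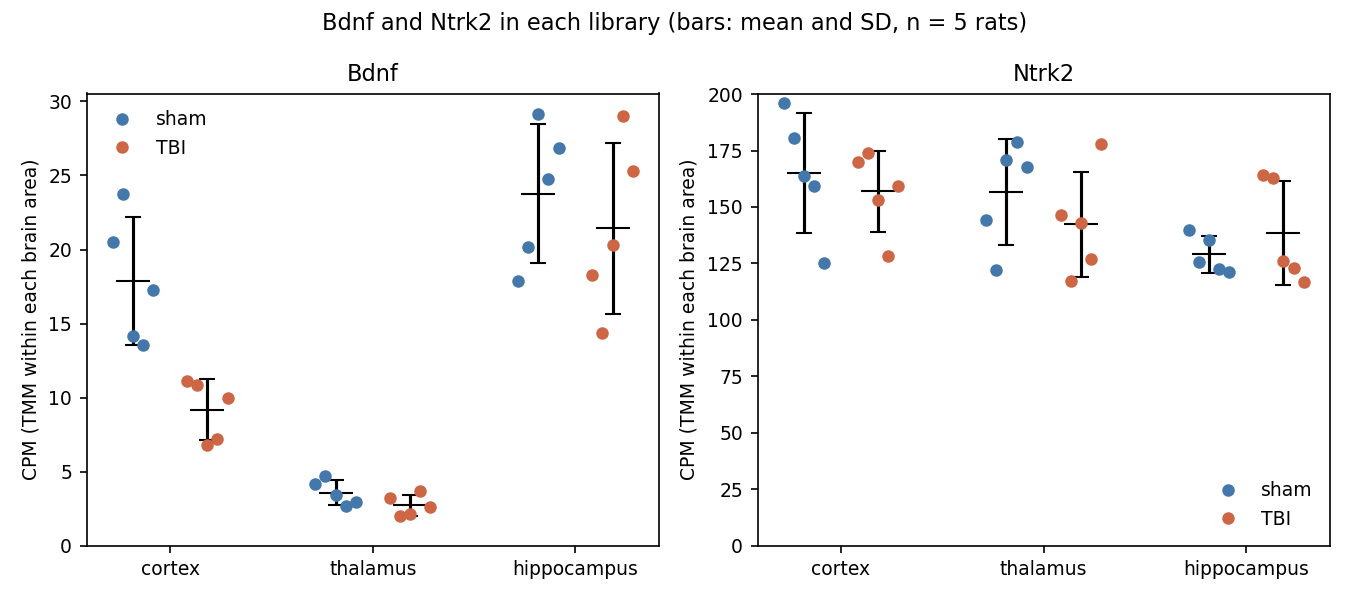
Level of Bdnf (left) and Ntrk2 (right) in CPM in each of the 30 libraries, by brain area, with sham-operated animals in blue and TBI in orange, and with horizontal bars and whiskers for the mean and SD of 5 rats. CPM were scaled within each area, so heights are to be compared within an area only. The cortical Bdnf values after TBI, 6.81 to 11.1 CPM, all lie below the sham values, 13.6 to 23.8 CPM, while the groups overlap in the other panels and areas.

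In the thalamus, Bdnf was a low-count gene, and a change was not detected. It was measured at 4.15, 4.68, 3.40, 2.67 and 2.93 CPM in sham-operated rats 1 to 5 and at 3.19, 1.99, 2.12, 3.68 and 2.59 CPM in TBI rats 6 to 10. TBI rats 7, 8 and 10 lay below all sham libraries, and TBI rats 6 and 9 lay within the sham range. The means were 3.56 ± 0.838 CPM (SD, n = 5) and 2.71 ± 0.718 CPM (SD, n = 5). The log2 fold change was -0.40, with a 95% confidence interval of -0.88 to 0.09 (adjusted p = 0.310 in edgeR, unadjusted p = 0.101). The interval reaches from 0.542-fold to 1.06-fold. With single rats omitted the value ran from -0.28 (without rat 2) to -0.53 (without rat 9), where the interval of -1.02 to -0.036 lay clear of 0 and the adjusted p was 0.196 (edgeR). For comparison, 5.62% of the 16605 genes tested in the thalamus were called, and 5.4% had groups without overlap. The number called rested on single rats, at 934 with all rats, 0 without rat 3, 5, 7 or 8, and 2421 without rat 6.

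Thalamic Ntrk2 was at 144, 122, 171, 179 and 168 CPM in sham-operated rats 1 to 5 and at 146, 117, 143, 127 and 178 CPM in TBI rats 6 to 10. The groups overlapped, and TBI rat 10 was about as high as the highest sham-operated animal. The log2 fold change was -0.14 (95% confidence interval -0.43 to 0.15, adjusted p = 0.572, edgeR), from means of 157 ± 23.4 and 142 ± 23.2 CPM (SD, n = 5 each). It ran from -0.23 without rat 10 to -0.077 without rat 7, and was -0.064 with the share of the 10 most counted genes as a covariate, with no call in any of these fits.

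In the hippocampus, neither gene was called, nor was any other of the 16963 genes tested in edgeR (0%). However, 1432 genes had an unadjusted p under 0.05. DESeq2 called 41 of the 2822 genes to which it gave an adjusted p, and Bdnf received none. Without rats 3 and 8 edgeR called 263 genes, and without rats 3, 4, 5 and 8 it called 82, neither Bdnf nor Ntrk2 among them. Groups without overlap were found for 0.984% of genes there, and neither Bdnf nor Ntrk2 was one of them. Bdnf was at 17.9, 20.1, 29.2, 24.8 and 26.9 CPM in sham-operated rats 1 to 5 and at 18.3, 14.4, 20.3, 29.0 and 25.3 CPM in TBI rats 6 to 10. The groups overlapped over most of their range, and only TBI rat 7 lay below all sham-operated animals. The means were 23.8 ± 4.69 CPM (SD, n = 5) and 21.4 ± 5.78 CPM (SD, n = 5). The log2 fold change was -0.15 with a 95% confidence interval of -0.56 to 0.27 (adjusted p = 0.871, edgeR). It was -0.06 without sham-operated rats 4 and 5, -0.04 without rats 3 and 8, and 0.20 without all 4 (adjusted p = 0.978, 0.964 and 0.813 in edgeR), so that even its sign was not stable. With single rats omitted it ran from -0.28 (without rat 9) to -0.031 (without rat 7).

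Ntrk2 in the hippocampus was at 140, 126, 136, 123 and 121 CPM in sham-operated rats 1 to 5 and at 164, 163, 126, 123 and 117 CPM in TBI rats 6 to 10. TBI rats 6 and 7 lay above all sham-operated animals, and the other TBI rats lay close to the sham levels. The same rats 6 and 7 had the lowest Bdnf levels among the hippocampal TBI libraries. The log2 fold change of Ntrk2 was 0.10 (95% confidence interval -0.11 to 0.31, adjusted p = 0.816, edgeR), from 129 ± 8.20 to 139 ± 23.0 CPM (SD, n = 5 each). Without sham-operated rats 4 and 5 it was 0.05, and without rats 3 and 8 it was 0.15 (adjusted p = 0.952 and 0.649 in edgeR). Omitting TBI rat 6 or 7 alone gave 0.034 or 0.037, and omitting rat 10 gave 0.16. With total counts, under which the median of all hippocampal genes was 0.38, the log2 fold change of Ntrk2 was 0.48 (adjusted p = 0.262, edgeR). The column names of 3 sham and 4 TBI libraries hold the token FC120 and those of rats 5 and 10 hold FC122, while that of rat 1 has no such token, and what the tokens stand for is not stated. Among the FC120 libraries, the log2 fold change was -0.27 for Bdnf and 0.17 for Ntrk2 (adjusted p = 0.897 and 0.890, edgeR). FC122 marked 1 library per group, too few for a value of its own.

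Whether the TBI effect differed between areas was tested by interaction terms in a single edgeR fit of all 30 libraries. For Bdnf, the cortical log2 fold change was more negative than the hippocampal one by a difference of -0.84 (standard error 0.28, 95% confidence interval -1.41 to -0.27). The unadjusted p of 0.00531 became an adjusted p of 0.163 over all genes, so the difference did not pass the threshold, which 0.449% of 18040 genes passed. The adjusted p ranged from 0.0316 with limma's voom to 0.358 with total counts over the alternatives, and it was 0.208 without sham-operated rats 4 and 5 and 0.246 without rats 3 and 8 in the hippocampus (edgeR). Between cortex and thalamus, the difference for Bdnf was -0.55 (95% confidence interval -1.17 to 0.07, adjusted p = 0.588 in edgeR, with 0.582% of genes called). It was -0.35 without rat 9, -0.72 without rat 7, where the interval of -1.34 to -0.11 lay clear of 0, and -0.34 with total counts (adjusted p = 0.888, 0.451 and 0.811, edgeR). Between thalamus and hippocampus it was -0.29 (95% confidence interval -0.90 to 0.33, adjusted p = 0.703 in edgeR, with 0.322% of genes called). It was -0.37 without sham-operated rats 4 and 5 in the hippocampus, -0.39 without rats 3 and 8 and -0.65 without all 4 (adjusted p = 0.704, 0.700 and 0.668, edgeR), and -0.42 to -0.11 with single rats omitted. With total counts it was -0.64, where the interval of -1.28 to -0.00015 lay clear of 0 (adjusted p = 0.222, edgeR). The median of all genes was then -0.35. The shares of called genes that involve the hippocampus also rested on single rats. Between thalamus and hippocampus, 58 genes were called with all rats, 0 without rat 3, 5, 8 or 10, and 1402 without rat 6. Between cortex and hippocampus, 81 were called with all rats and 14 to 116 with single rats omitted. That Bdnf was called in the cortex and not in the other areas is thus not shown to be a difference between areas.

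For Ntrk2, the differences of the TBI effects were 0.06 between cortex and thalamus, -0.21 between cortex and hippocampus and -0.27 between thalamus and hippocampus. None passed the threshold (adjusted p = 0.972, 0.660 and 0.496, edgeR interaction test). Their 95% confidence intervals were -0.30 to 0.43, -0.57 to 0.16 and -0.63 to 0.09. Without hippocampal rats 3, 4, 5 and 8, the latter differences were -0.21 and -0.28 (adjusted p = 0.911 and 0.808, edgeR). The difference between thalamus and hippocampus was -0.15 without rat 7 and -0.42 without rat 10, where the interval of -0.79 to -0.055 lay clear of 0, and it was -0.60 with total counts (adjusted p = 0.795, 0.324 and 0.173, edgeR). Total counts moved the median of all genes to -0.35 in this comparison. Between cortex and hippocampus it ran from -0.28 to -0.16 with single rats omitted and was -0.32 with total counts, and between cortex and thalamus it was 0.28 with total counts.

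**Figure D2:**
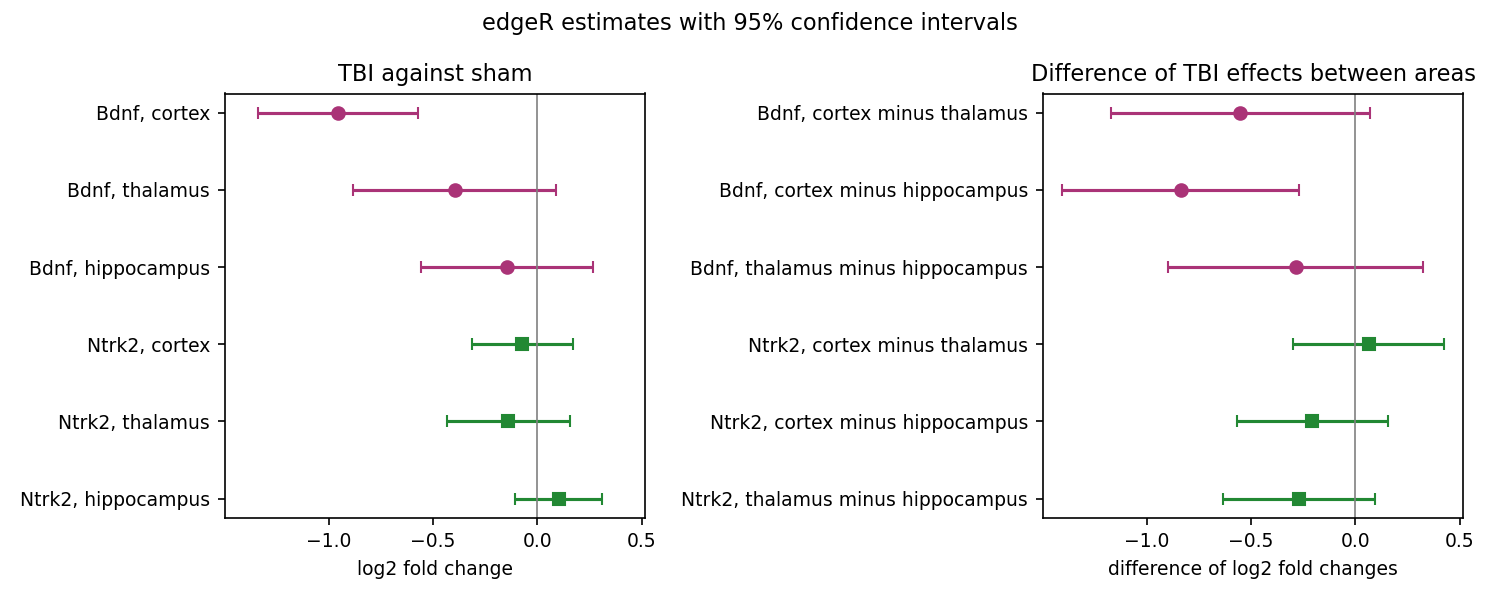
Points give the edgeR log2 fold change after TBI by area (left) and the difference of these changes between areas (right), for Bdnf (circles) and Ntrk2 (squares), and bars give 95% confidence intervals that are not adjusted for the number of genes. Left of 0 means lower after TBI, or a more negative change in the area named first. Only the cortical Bdnf estimate, -0.96, and the cortex minus hippocampus difference of Bdnf, -0.84, have intervals clear of 0, and the latter had an adjusted p of 0.163.

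Within a library, the ratio of the counts of both genes does not depend on the scaling between libraries. It was calculated after the values had been seen and is given as a description, without a test. In the cortex there were 10.5, 13.2, 8.66, 8.52 and 13.8 Bdnf reads per 100 Ntrk2 reads in rats 1 to 5 (sham), and 6.55, 6.22, 4.45, 5.62 and 6.24 in TBI rats 6 to 10. The groups did not overlap, with means of 10.9 (SD 2.46) for sham and 5.82 (SD 0.835) for TBI. Cortical Bdnf alone did not overlap either, so this is not a separate result. The thalamic ratios ran from 1.49 to 3.84 in sham-operated animals and from 1.45 to 2.90 after TBI. Those of the hippocampus ran from 12.8 to 22.2 and from 8.83 to 23.6. In both of these areas the groups overlapped, and TBI rat 7 had the lowest hippocampal ratio. Without rats 3, 4, 5 and 8, the hippocampal ratios were 12.8 and 16.03 in sham-operated animals and 11.1, 8.83, 23.6 and 21.6 after TBI, and the groups still overlapped. The lengths of the genes do not enter these ratios, so they do not compare the abundance of ligand and receptor transcripts.

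**Figure D3:**
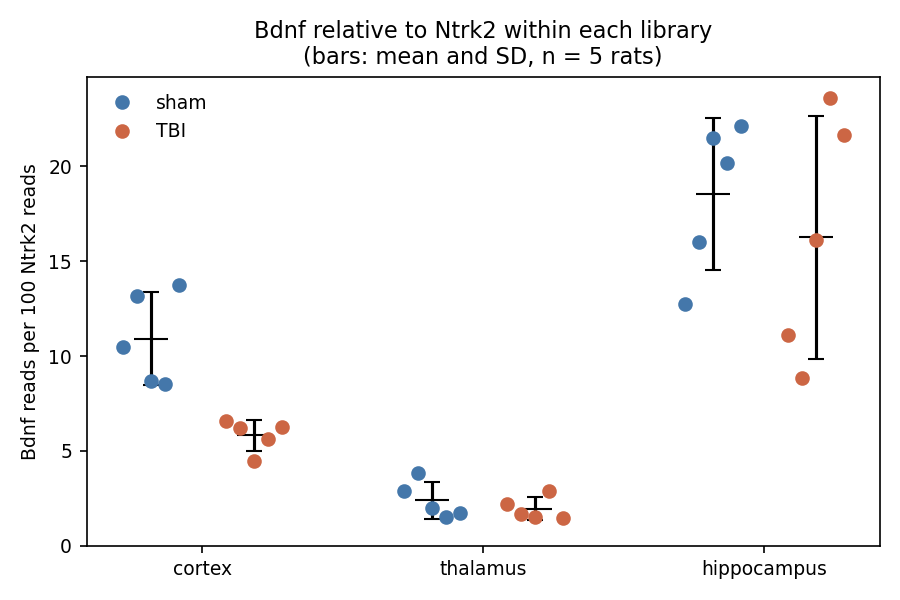
Bdnf reads per 100 Ntrk2 reads in each library, by brain area, for sham-operated animals (blue) and TBI (orange), with the mean and SD of 5 rats as bars. In the cortex the TBI values, 4.45 to 6.55, lie below the sham values, 8.52 to 13.8, whereas the groups overlap in the thalamus and hippocampus.

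Among sham-operated animals, Bdnf differed widely between brain areas and Ntrk2 little. For this comparison the 15 sham libraries were scaled together and fitted as 1 model. Bdnf was at 19.4, 22.2, 13.2, 12.8 and 16.1 CPM in the cortex of rats 1 to 5, at 3.31, 3.90, 2.74, 2.15 and 2.43 CPM in the thalamus, and at 18.4, 20.8, 30.1, 25.5 and 27.7 CPM in the hippocampus. The thalamic libraries lay far below all others, and the ranges of cortex and hippocampus overlapped. Rats 1 and 2 had the highest levels of the 5 in the cortex and in the thalamus, and the lowest in the hippocampus. The means were 16.7 ± 4.02 CPM in the cortex, 2.91 ± 0.703 CPM in the thalamus and 24.5 ± 4.84 CPM in the hippocampus (SD, n = 5 each).

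Thalamic Bdnf was 0.175-fold of the cortical level, a log2 difference of -2.52 (standard error 0.19, adjusted p = 2.11e-09, edgeR). Hippocampal Bdnf was 8.38-fold of the thalamic level, a log2 difference of 3.07 (standard error 0.20, adjusted p = 1.38e-10, edgeR), and without hippocampal rats 3, 4 and 5 this difference was 2.73 (adjusted p = 1.36e-07, edgeR). In these tests 70.8% and 67.6% of 17315 genes were called, so most genes differ between these areas. According to the study's methods, sequencing of the thalamus used a different instrument and more cycles, so that instrument and area cannot be told apart for the thalamus, whereas the labels name a single instrument. Between hippocampus and cortex, where 44.4% of genes were called, Bdnf was 1.46-fold higher in the hippocampus, a log2 difference of 0.55 (standard error 0.18, 95% confidence interval 0.18 to 0.92, adjusted p = 0.0169, edgeR). This call was kept in 6 of 10 alternatives, DESeq2 among them (adjusted p = 0.0144). It was lost without rat 3, 4 or 5 (adjusted p = 0.138, 0.0795 and 0.0809, edgeR). With total counts the difference was 0.34 and the call was lost (adjusted p = 0.297, edgeR). It was also lost without the hippocampal libraries of rats 4 and 5 or of rat 3 (log2 differences of 0.46 each, adjusted p = 0.105 and 0.0554 in edgeR), and without all 3 the difference was 0.22 (adjusted p = 0.512, edgeR).

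Ntrk2 in sham-operated rats 1 to 5 was at 185, 168, 153, 150 and 117 CPM in the cortex, at 115, 102, 138, 144 and 139 CPM in the thalamus, and at 144, 130, 140, 126 and 125 CPM in the hippocampus. All 3 areas overlapped, and the hippocampal libraries lay closest together. The means were 155 ± 25.5, 128 ± 18.3 and 133 ± 8.50 CPM (SD, n = 5 each). The thalamus differed from the cortex by -0.28 (log2, 95% confidence interval -0.52 to -0.03, adjusted p = 0.0415, edgeR). With the rat as a block, since the same rats gave all areas, the difference was -0.27 and the adjusted p 0.0636, past the threshold no longer. The call was also lost without a filter on low counts, with limma's voom and in one edgeR fit of all 30 libraries (adjusted p = 0.0619, 0.0979 and 0.0520). Without rats 1, 2 and 3 in turn, the differences were -0.19, -0.19 and -0.33 (adjusted p = 0.175, 0.165 and 0.0528, edgeR), so that the loss without rat 3 came with a larger difference. With total counts the difference was 0.030 and the call was lost (adjusted p = 0.914, edgeR). In all, the call was kept in 2 of 7 alternatives, DESeq2 among them (adjusted p = 0.0246). It was kept in 2 of 5 fits with single rats omitted. The hippocampus differed from the cortex by -0.22 (95% confidence interval -0.46 to 0.03, adjusted p = 0.142, edgeR) and from the thalamus by 0.06 (95% confidence interval -0.19 to 0.31, adjusted p = 0.664, edgeR). Without hippocampal rats 3, 4 and 5 these differences were -0.19 and 0.088 (adjusted p = 0.448 and 0.678, edgeR). With total counts these differences were -0.39 and -0.42 (adjusted p = 0.188 and 0.0879, edgeR).

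**Figure D4:**
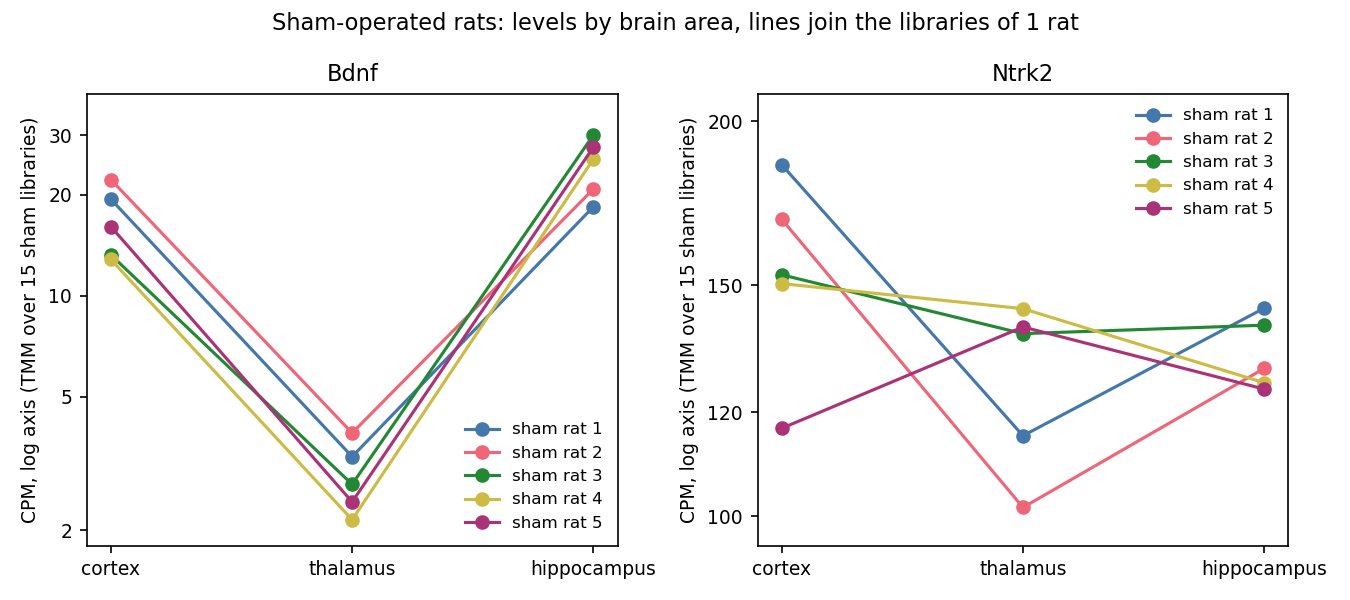
Level of Bdnf (left) and Ntrk2 (right) in the 3 brain areas of the 5 sham-operated rats, in CPM on log axes with different spans, where each line joins the libraries of 1 rat. Every Bdnf line dips in the thalamus, to between 2.15 and 3.90 CPM, whereas the Ntrk2 lines cross between 102 and 185 CPM.

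When all 30 libraries were scaled together, the order of the Bdnf means was hippocampus sham (26.5 ± 5.25 CPM), hippocampus TBI (24.0 ± 6.47 CPM), cortex sham (18.2 ± 4.40 CPM), cortex TBI (9.23 ± 2.11 CPM), thalamus sham (3.18 ± 0.779 CPM) and thalamus TBI (2.38 ± 0.632 CPM), each with the SD of 5 rats. Hippocampus sham overlapped with hippocampus TBI, hippocampus TBI with cortex sham, and thalamus sham with thalamus TBI. Cortex TBI stood apart from its neighbours on both sides. For Ntrk2 the order was cortex sham (169 ± 27.8 CPM), cortex TBI (158 ± 19.4 CPM), hippocampus TBI (155 ± 25.8 CPM), hippocampus sham (144 ± 8.88 CPM), thalamus sham (139 ± 19.6 CPM) and thalamus TBI (125 ± 20.2 CPM). All neighbours in this order overlapped.

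Across these 30 libraries, 627 of 16003 other genes had a Pearson correlation above 0.9 with the log2 CPM of Bdnf and 393 had one under -0.9, and the 5 closest reached 0.968 to 0.973. For Ntrk2, 0 of 16003 genes passed either bound, and the 5 closest reached 0.755 to 0.797. These genes are counted and not named, for lack of names. The libraries share rats and come from 3 areas, and correlations within an area were not computed. The biological coefficient of variation that edgeR estimated for Bdnf was 0.201 in the cortex, above that of 83.5% of the genes tested. For Ntrk2 it was 0.139, above 51.6% of genes. This is a moderated estimate of the spread within groups, in which rats and libraries cannot be told apart. In the hippocampus the values were 0.207 and 0.125, above 87.9% and 46.3% of genes, and in the thalamus 0.246 and 0.165, above 71.6% and 30.1%.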

How the data were processed

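Alignment by the authors was to RN5, with STAR. For every brain area they deposited a table of raw read counts, with Ensembl identifiers for the genes. The counting tool, annotation release and use of strand are not given in the sources used here. All columns were matched to samples by rat number and area, and 0 such columns remained without use. The members and comparisons were chosen with earlier results of these data known.

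The software was edgeR 4.0.16 and, for alternatives, DESeq2 1.42.0 and limma 3.58.1, under R 4.3.3. Genes were kept by filterByExpr (minimum count 10, minimum total count 15), scaled by TMM and tested with edgeR's robust quasi-likelihood test. P-values were adjusted over all genes by the Benjamini-Hochberg method, with a threshold of 0.05. TBI was compared with sham in each area alone, areas were compared in the 15 sham libraries, and interactions were tested in all 30. Confidence intervals were computed from the log2 fold change, its standard error and the t distribution. A prior count of 3 was added for log2 CPM. The study used DESeq2 and kept 3 sham and 5 TBI hippocampal libraries, having discarded 2 unnamed ones for low alignment. All 10 entered here. The procedures were also run on simulated counts, with the same spread for every gene and no outlying libraries. The outcome is not given here.

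Genes named were Bdnf and Ntrk2, and by the rule also the ligands, receptors and called pathway genes, and genes most like the members, where names could be matched, which 0 identifiers could. The fixed lists of pathway genes and cell markers were therefore not analysed. The pairing of libraries comes from the rat numbers in the labels, since the same rats gave all areas. The mean correlation of same-rat deviations from the group means was 0.0578 between cortex and thalamus, 0.122 between cortex and hippocampus and 0.0383 between thalamus and hippocampus. Sequences are from RefSeq (GRCr8), where promoter windows were found for Bdnf.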

Additional observations from a re-analysis of the deposited data

How the results depend on the processing

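Of 164 alternative values of the 18 results, 148 kept their direction and their side of the threshold, and so did 141 of 150 values with single rats left out. The 148 include hippocampal Bdnf after TBI in DESeq2, which had no adjusted p and was counted as not called. The cortical fall of Bdnf and the low Bdnf level of the sham thalamus kept both under every alternative run. For cortical Ntrk2 after TBI, the log2 fold change was 0.16 with total counts, 0.047 with the share of the 10 most counted genes as a covariate, and -0.14 to 0.012 with single rats left out. For hippocampal Bdnf after TBI it was 0.26 with total counts and 0.20 without rats 3, 4, 5 and 8. The sham difference of Bdnf between hippocampus and cortex was 0.34 with total counts, 0.46 without the hippocampal libraries of rats 4 and 5, 0.46 without that of rat 3, 0.22 without all of these, and 0.38 to 0.72 with single rats left out. The sham difference of Ntrk2 between thalamus and cortex was -0.26 without a filter, -0.19 with limma's voom, -0.27 with the replicate block, -0.27 in one fit of all 30 libraries, 0.030 with total counts, and -0.42 to -0.19 with single rats left out. Between hippocampus and thalamus it was -0.015 with voom and -0.42 with total counts, which moved the median of all genes to -0.47 there, to 0.31 between thalamus and cortex and to 0.38 for TBI in the hippocampus. The interaction of Bdnf between cortex and hippocampus was -0.89 with voom and passed the threshold. That of Ntrk2 between cortex and thalamus ran from -0.053 to 0.17 with single rats left out. The block changed no other call of these genes. Numbers of called genes moved most in the thalamus (934, with 1994 in DESeq2, 3457 in one fit of all 30 libraries and 0 to 2421 with single rats left out), the hippocampus (0, and up to 263 without rats 3 and 8) and the interactions (105, 81 and 58, with 270, 331 and 343 in DESeq2, 192, 1115 and 795 with voom, and 65 to 136, 14 to 116 and 0 to 1402 with single rats left out, for cortex minus thalamus, cortex minus hippocampus and thalamus minus hippocampus). The causes were not tested. Total counts, the covariate, the libraries with the token FC120 alone and the fits of 2 areas alone were added after seeing the data. Alternatives for the number of called pathway genes were not run, since no identifier was paired with a name. Bdnf had 48 to 128 reads per thalamic library, the lowest depth behind any value here.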
